A study of Mus musculus with 8 samples.

Results

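The interleukin 1, interleukin 18 and interleukin 33 axis was followed in regulatory T cells (Tregs) through 10 genes, chosen by symbol from the 56980 genes counted. They comprise 4 ligand genes, Il1a, Il1b, Il1rn and Il18, and 6 receptor genes, Il1r1, Il1r2, Il1rap, Il1rl1, Il18r1 and Il18rap. All 10 were found, and 9 passed the filter on low counts, the exception being Il1a. Tregs were sorted by flow cytometry from the peripheral blood of male C57BL/6j mice that were 8 weeks old at purchase, and RNA-seq was performed on 4 libraries of the high-altitude de-acclimatization (HADA) group and 4 control libraries. HADA mice were kept for 28 days under hypobaric hypoxia equal to 6000 m and were then returned to normoxia, and control mice had stayed in normoxia. The day of sorting for RNA-seq and the number of mice behind each library are not given in the sources used here. For its co-culture experiments the study defined Tregs as CD4+CD25+, a gate that activated T cells can also enter, and the gate used for RNA-seq is not stated separately.

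Interleukin 1 alpha and beta are inflammatory cytokines that bind the receptor chain IL1R1, which then recruits the accessory chain IL1RAP and signals through MYD88. The pathway carries its own brakes, the receptor antagonist IL1RN and the decoy receptor IL1R2. Interleukin 18 binds IL18R1 with the accessory chain IL18RAP, and it is best known for driving interferon gamma production in T and NK cells. Interleukin 33 binds ST2, the product of Il1rl1, together with IL1RAP, and ST2 marks a subset of Tregs with roles in tissue repair as well as mast cells and basophils.

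The HADA libraries held 22929193 to 28240337 counts each, and the control libraries 1477431 to 22584062. Control replicate 1 had the 1477431 counts and stood apart from control replicates 2 to 4 in much of what follows, so results are given with and without it. A floor of 3 counts equals 1.86 CPM (counts after TMM scaling of library sizes) in control replicate 1 and at most 0.180 CPM in any other library, and covers counting error only. Of the markers of the sorted cells, Il2ra, which encodes CD25, had a mean of 376.6 CPM in HADA (SD 255.5, n = 4) against 63.7 CPM in the control libraries (SD 79.7, n = 4). The means of Cd4 were 165 CPM (SD 60.0) and 106.9 CPM (SD 118.8). Neither was past the thresholds given below in edgeR (adjusted p = 0.156 and 0.721), while DESeq2 called Il2ra higher. The 7 Treg markers summed to 1089 to 2894 CPM in HADA and 231.7 to 923.4 in control. Of the 5 tested, DESeq2 called 2 higher, Il2ra and Ctla4, where 6.98% of all genes were. Ctla4 had groups apart as higher, as 9.13% of all genes did. Foxp3, the lineage-defining factor of Tregs, and Tnfrsf18 were listed at 0 in every library, and 100% of each span is covered by other gene spans, so that these genes check nothing. As counts were summed over whole gene spans, introns included, the counts per kb of 1393 genes for olfactory and vomeronasal receptors, all free of other spans, were used as a reference level. These genes belong to sensory neurons. Their density, as total counts over total span, was 2.01 to 5.35 counts per kb in the HADA libraries, 3.48 to 10.8 in control replicates 2 to 4, and 0.0799 in control replicate 1. Their median was 0.705 to 1.77 counts per kb in the HADA libraries and 3.05 to 10.7 in control replicates 2 to 4. In control replicate 1 the median was 0. The total density thus lay further above the median in the HADA libraries than in control replicates 2 to 4, which lowers ratios to it more there. In bulk libraries, a lower share of expressing cells and less RNA per cell cannot be told apart.

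The receptor genes of the axis sit together on chromosome 1 of GRCm39, where 5 of the 6 lie on the plus strand within 477.6 kb from the start of Il1r2 to the end of Il18rap. Il1r2 (ENSMUSG00000026073) spans 40113239 to 40164391, Il1r1 (ENSMUSG00000026072) 40264240 to 40356417, Il1rl1 (ENSMUSG00000026069) 40468730 to 40504575, Il18r1 (ENSMUSG00000026070) 40504712 to 40540014 and Il18rap (ENSMUSG00000026068) 40554522 to 40590865. Il1rap (ENSMUSG00000022514) lies apart, on chromosome 16 from 26400454 to 26548867. Il1a (ENSMUSG00000027399, 129141530 to 129151892, minus strand) and Il1b (ENSMUSG00000027398, 129206490 to 129213059, minus strand) are neighbours on chromosome 2, with 54.6 kb between them. Il1rn (ENSMUSG00000026981) lies on the same chromosome from 24226865 to 24241506, and Il18 (ENSMUSG00000039217) on chromosome 9 from 50466127 to 50493140. Stretches shared with another gene's span were treated as not countable, and they made up 79.3% of the span of Il1a (Gm14023), 38.2% of Il1rap (Gm20319), 24.8% of Il1r2 (Gm16894 and Gm37347), 18.9% of Il1b (its antisense gene Il1bos), 18% of Il18 (Bco2 and Tex12) and 7.03% of Il1r1 (Gm38070). Il1rn, Il1rl1, Il18r1 and Il18rap were free of overlap, and densities below use only the part of each span that is free.

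The windows of 250 bases upstream of the annotated gene starts are shown for Il1b, Il1rl1 and Il18rap, because these genes were among the 4 that differed between the groups once control replicate 1 was left out, and for Il1rn, which was high in a single library. For Il18r1, the entire interval of 136 bases that separates it from the end of Il1rl1 is shown. All are read 5′ to 3′ on the strand of the gene in GRCm39, and capitals mark motif matches.
Il1b, chr2:129213060-129213309, minus strand: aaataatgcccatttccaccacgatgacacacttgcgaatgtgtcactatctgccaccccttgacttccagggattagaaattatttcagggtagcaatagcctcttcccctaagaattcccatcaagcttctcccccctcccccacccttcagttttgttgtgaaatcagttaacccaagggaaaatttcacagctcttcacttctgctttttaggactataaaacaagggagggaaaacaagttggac
Il1rn, chr2:24226615-24226864, plus strand: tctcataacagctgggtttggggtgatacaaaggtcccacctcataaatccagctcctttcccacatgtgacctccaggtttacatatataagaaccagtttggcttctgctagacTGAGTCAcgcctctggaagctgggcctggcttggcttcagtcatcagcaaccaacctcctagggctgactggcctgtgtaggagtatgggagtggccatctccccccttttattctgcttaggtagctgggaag
Il1rl1, chr1:40468480-40468729, plus strand: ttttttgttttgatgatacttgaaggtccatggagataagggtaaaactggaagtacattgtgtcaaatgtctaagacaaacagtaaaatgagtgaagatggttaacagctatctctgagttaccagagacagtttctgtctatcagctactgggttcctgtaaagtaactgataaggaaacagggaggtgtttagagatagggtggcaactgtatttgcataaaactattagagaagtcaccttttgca
Interval between Il1rl1 and Il18r1, chr1:40504576-40504711, plus strand: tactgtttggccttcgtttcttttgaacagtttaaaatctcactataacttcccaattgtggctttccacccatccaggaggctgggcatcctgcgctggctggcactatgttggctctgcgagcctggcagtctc
Il18rap, chr1:40554272-40554521, plus strand: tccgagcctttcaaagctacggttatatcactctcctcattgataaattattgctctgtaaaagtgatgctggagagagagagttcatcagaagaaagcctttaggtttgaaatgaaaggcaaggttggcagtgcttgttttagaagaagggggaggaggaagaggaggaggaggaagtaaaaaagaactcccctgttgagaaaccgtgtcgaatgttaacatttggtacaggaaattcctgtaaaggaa
Both strands were searched for 5 motifs. These were the core of the antioxidant response element bound by NRF2 (TGACNNNGC), the AP-1 site (TGACTCA or TGAGTCA), the NF-kB site, the STAT5 site (TTCNNNGAA) and the core of the hypoxia response element (ACGTG). Among the windows of the 10 genes, the antioxidant response element, NF-kB and STAT5 motifs had 0 matches, against 10.1%, 4.21% and 7.24% of the windows of 21618 protein-coding genes. The AP-1 letters were found upstream of Il1rn, with the first base 134 bases before the start, and upstream of Il1a (4.02% of all windows). Its spellings are the reverse complement of each other, so a site counts on either strand. The hypoxia core was found upstream of Il1r1, Il1r2 and Il1rap (17.4% of all windows). The windows of Il1b, Il18, Il1rl1, Il18r1 and Il18rap and the interval between Il1rl1 and Il18r1 held 0 matches, which says only that these letters are not in these windows.

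By the thresholds of an adjusted p-value below 0.05 and a log2 fold change beyond 1, 0 of the 9 tested genes of the axis differed between HADA and control Tregs with edgeR's quasi-likelihood test and Benjamini-Hochberg adjustment (edgeR adjusted p below), against 2.13% of all 21991 tested genes (1.65% higher and 0.477% lower). At an unadjusted p below 0.05 there was 1 of the 9, Il18rap, which was higher, against 12.0% of all genes higher and 26.7% in either direction. With DESeq2, which adjusted p-values for 8 of the 9, 1 was past the thresholds as higher, Il18rap, where 6.98% of all genes were higher and 18.5% were called in either direction. With limma 0 of the 9 were, against 4.05% of all genes (3.7% higher and 0.346% lower). The 4 HADA and 4 control values overlapped for every one of the 9, while 14.8% of all genes had groups that did not (9.13% higher and 5.7% lower). The overlap came from control replicate 1 in 5 of them. Without that library the groups were apart for Il1b, Il1rl1, Il18r1 and Il18rap, all higher in HADA (18.4% of all genes), and for Il1r2, lower in HADA (26.6% of all genes). In the edgeR fit without it, Il1b, Il1rl1, Il18r1 and Il18rap were past the thresholds as higher in HADA, 4 of 9 against 15.5% of all genes, and 0 of 9 were lower against 19.7% (35.1% of all genes in either direction).

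**Figure D1:**
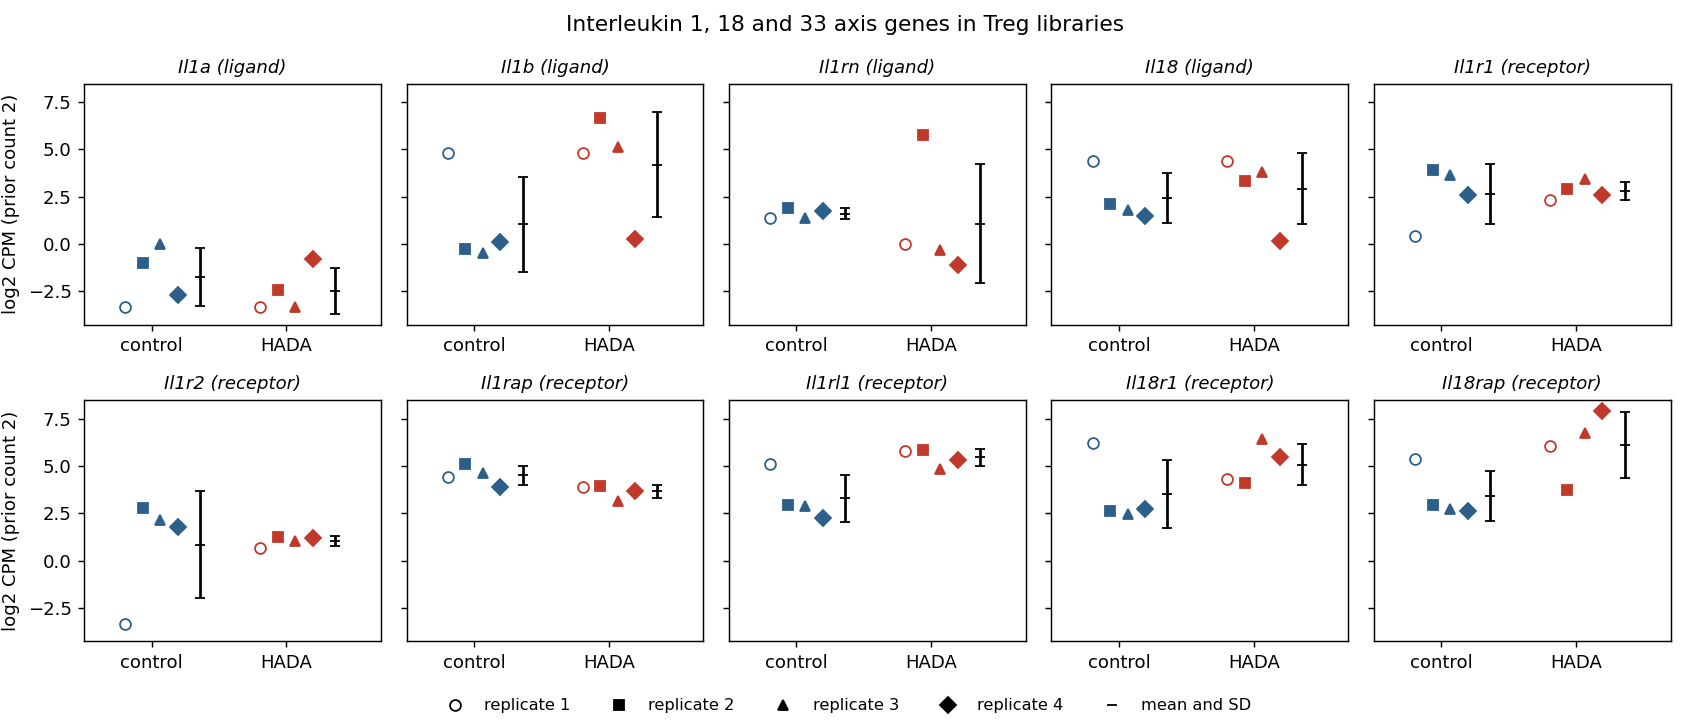
Log2 CPM (prior count of 2) of the 10 genes of the axis in each library, with control libraries in blue and HADA libraries in red, marker shapes for replicate numbers and black bars for the mean and SD of 4 libraries. Control replicate 1, the open blue circle, lies among the red points for Il1b, Il18, Il1rl1, Il18r1 and Il18rap, while the other control libraries lie below most of them.

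Densities per kb relative to the olfactory and vomeronasal receptor genes set the libraries apart in the same way. In control replicates 2, 3 and 4, 0 of the 10 genes had a density above the 95th percentile of those receptor genes, and their ratios to the reference density ran from 0.134 to 1.47. In control replicate 1, 5 of the 10 did, namely Il1b, Il18, Il1rl1, Il18r1 and Il18rap. The same 5 genes did in HADA replicates 1 and 3. HADA replicate 2 had these 5 and Il1rn, and HADA replicate 4 had Il1a, on 8 counts, in place of Il18. Il1r1, Il1r2 and Il1rap were not above it in any of the 8 libraries. That percentile was 0.412 counts per kb in control replicate 1, where the median receptor gene was at 0. It was at least 6.37 in control replicates 2 to 4 and at least 3.08 in the HADA libraries. Il18r1 was thus above it at 3.34 counts per kb in control replicate 1, but not at 5.47 in control replicate 2. Passing this percentile therefore does not compare control replicate 1 with the other libraries on equal terms. After the reference density was subtracted over each whole span, shared stretches included, control replicates 2 to 4 kept counts for 1 of the 10 genes. These were 6 counts of Il1rn in control replicate 4. For genes with shared stretches this takes off more than the reference density over free span. On free span, Il1rap in control replicate 2 (ratio 1.09) and Il1a in control replicate 3 (ratio 1.47) were also above the reference density. How much of each value comes from reads other than those of mature mRNA was not tested.

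**Figure D2:**
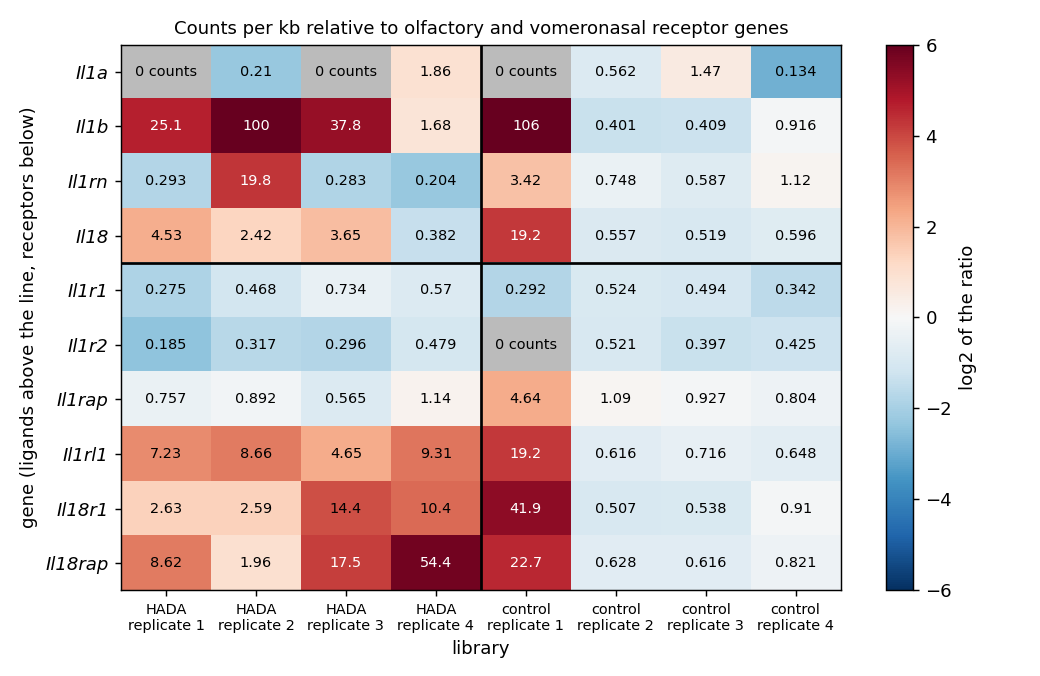
Counts per kb of each gene divided by the counts per kb of olfactory and vomeronasal receptor genes in the same library, printed in each cell and coloured by the log2 of the ratio, with grey for 0 counts. Control replicates 2 to 4 stay between 0.134 and 1.47 in every row, while Il1rl1, Il18r1 and Il18rap are at 1.96 or more in each HADA library and in control replicate 1.

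Among the ligands, Il1b had the highest mean level per kb and the widest SD in both groups. In control replicates 2 to 4 it was below Il1rn, at 0.135, 0.118 and 0.185 against 0.252, 0.169 and 0.226 CPM per kb. In HADA replicate 4 it was below Il1a, at 0.203 against 0.224 CPM per kb. Il1b had 28.3, 99.4, 34.4 and 1.08 CPM in HADA replicates 1 to 4 and 27.96, 0.720, 0.629 and 0.985 CPM in control replicates 1 to 4. HADA replicate 4 and control replicates 2 to 4 were low, on 17 to 23 counts each, and the other 4 libraries were high. Its log2 fold change was 2.50 (SE 1.496, edgeR adjusted p = 0.275), and without control replicate 1 it was 5.84 (SE 1.42, edgeR adjusted p = 0.0205). Without HADA replicate 2 it was 1.60. The overlap with its antisense gene was treated as not countable. Strand settings of the counting are not stated, so whether any reads from that overlap entered the Il1b counts is not known.

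Il1rn, which encodes the antagonist that occupies IL1R1 without signalling, had 0.907, 53.8, 0.709 and 0.361 CPM in HADA replicates 1 to 4. The control libraries had 2.49, 3.69, 2.48 and 3.30 CPM. HADA replicate 2 was far above every other library, and the other 3 HADA libraries lay below all 4 control libraries. A log2 fold change of 2.21 (SE 1.39, edgeR adjusted p = 0.297) turned to -2.06 without HADA replicate 2 (edgeR adjusted p = 0.123), and DESeq2 gave no p-value for Il1rn.

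Il18, which encodes a cytokine released after cleavage by caspase 1, had 21.2, 9.97, 13.8 and 1.02 CPM in HADA replicates 1 to 4. In control replicates 1 to 4 it had 21.1, 4.16, 3.32 and 2.67 CPM. HADA replicate 4 was the lowest of the 8 libraries and control replicate 1 was level with the highest HADA library. HADA over control, the log2 fold change was 0.60 (SE 0.99, edgeR adjusted p = 0.692), it was -0.09 without HADA replicate 1 or with all libraries drawn down to 1477431 counts, and it was 1.91 without control replicate 1 (edgeR adjusted p = 0.118). Il1a, the sister gene of Il1b, had 0, 2, 0 and 8 counts in HADA replicates 1 to 4 and 0, 13, 26 and 1 counts in control replicates 1 to 4. With 79.3% of its span taken by Gm14023 and so few counts, a difference was not detectable.

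Il1rl1, which encodes the interleukin 33 receptor ST2 in its membrane and soluble forms, varied least among the HADA libraries of the 4 genes that differed without control replicate 1. It had 54.8, 57.7, 28.5 and 40.3 CPM in HADA replicates 1 to 4. Control replicates 1 to 4 had 34.2, 7.45, 7.41 and 4.69 CPM. All HADA libraries lay above control replicates 2 to 4, and control replicate 1 fell between HADA replicates 3 and 4. The log2 fold change was 1.78 (SE 0.87, edgeR adjusted p = 0.207) and 2.94 without control replicate 1 (SE 0.58, edgeR adjusted p = 0.012). In DESeq2 the adjusted p was 0.0541. The counts do not tell the membrane form from the soluble one.

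Il18r1, which encodes the ligand-binding chain of the interleukin 18 receptor, began 136 bases after the end of Il1rl1 but followed another order among the libraries. It had 19.6, 17.0, 86.8 and 44.4 CPM in HADA replicates 1 to 4. Control replicates 1 to 4 had 73.3, 6.04, 5.48 and 6.49 CPM. HADA replicate 3 was highest for Il18r1 and lowest of its group for Il1rl1, and control replicate 1 was above 3 of the 4 HADA libraries. The ratio of Il1rl1 to Il18r1 counts was 2.80, 3.39, 0.329 and 0.907 in HADA replicates 1 to 4 and between 0.466 and 1.35 in the control libraries. The log2 fold change of Il18r1 was 0.90 (SE 1.06, edgeR adjusted p = 0.574) and 2.94 without control replicate 1 (SE 0.77, edgeR adjusted p = 0.0248). With libraries drawn down to the smallest total it was -0.05.

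Il18rap, the accessory chain that completes the interleukin 18 receptor, stood highest of the 9 by log2 fold change in the fit of all 8 libraries. It had 66.1, 13.2, 108.9 and 238.8 CPM in HADA replicates 1 to 4. Control replicates 1 to 4 had 41.0, 7.70, 6.46 and 6.03 CPM. HADA replicate 2 lay below control replicate 1, and the other 3 HADA values exceeded every control value. Its log2 fold change was 2.83 (SE 1.07, edgeR adjusted p = 0.137), with an adjusted p of 0.0234 from DESeq2. Without control replicate 1 it was 4.13 (SE 1.03, edgeR adjusted p = 0.0215). Counts of Il18rap per count of Il18r1 were 3.38, 0.778, 1.26 and 5.37 in HADA replicates 1 to 4. They were between 0.559 and 1.27 in the control libraries. The counts of both genes were thus not in a fixed proportion across the HADA libraries. In control replicates 2 to 4 both genes were below the reference density. The part of other cell types in these ratios was not tested.

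The 3 genes of the interleukin 1 receptor itself had negative log2 fold changes, and their ratios to the reference density were at most 1.14, apart from 4.64 for Il1rap in control replicate 1. Il1r1, the signalling chain, had 4.97, 7.45, 10.8 and 5.89 CPM in HADA replicates 1 to 4 and 1.24, 15.2, 12.2 and 5.91 CPM in control replicates 1 to 4. Control replicate 1 held 2 counts of it, below the floor, and the groups overlapped. HADA over control, the log2 fold change was -0.27 (SE 0.79, edgeR adjusted p = 0.83), with a sign that changed to positive without control replicate 2. Il1r2, the decoy receptor, had 1.499, 2.26, 1.95 and 2.22 CPM in the HADA libraries and 0, 6.76, 4.40 and 3.30 CPM in control replicates 1 to 4. The HADA libraries lay below control replicates 2 to 4. The 0 counts of control replicate 1 allow up to 1.86 CPM, which is below control replicates 2 to 4 but above HADA replicate 1. Its log2 fold change was -0.94 (edgeR adjusted p = 0.413), and -1.13 without control replicate 1 (edgeR adjusted p = 0.0522). Il1rap, the accessory chain shared by the interleukin 1 and interleukin 33 receptors, had 14.7, 15.2, 8.86 and 12.6 CPM in the HADA libraries and 21.1, 33.9, 24.6 and 14.9 CPM in control replicates 1 to 4. The groups were separated but for HADA replicate 2, which was above control replicate 4, and the log2 fold change was -0.88 (SE 0.71, edgeR adjusted p = 0.409). The reference density per kb was lower in every HADA library than in control replicates 2 and 3, and its part in these negative values was not tested.

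**Figure D3:**
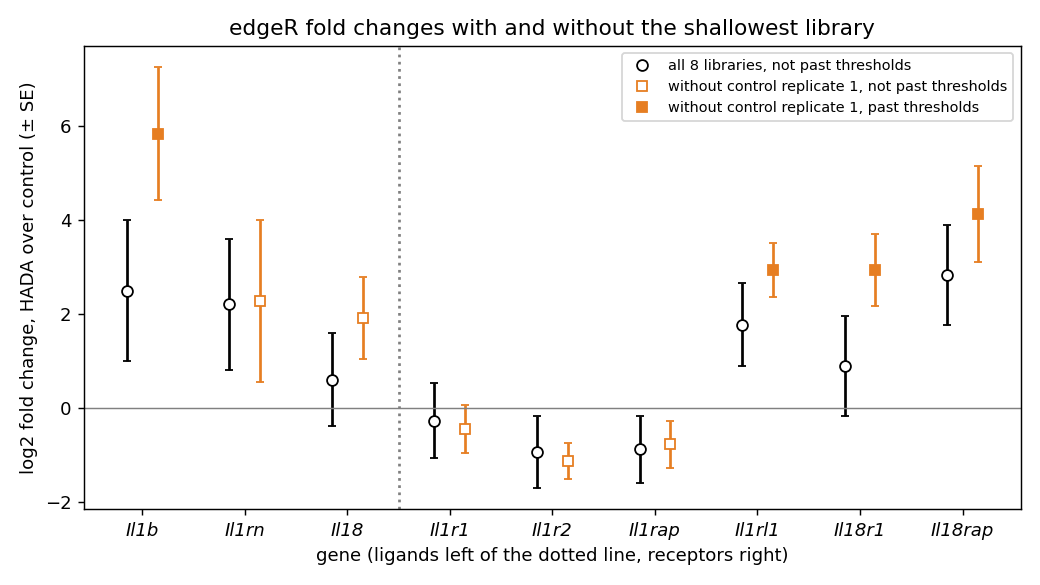
Log2 fold changes of HADA over control with standard errors for the 9 tested genes from edgeR, with all 8 libraries (black circles) and without control replicate 1 (orange squares), filled where the adjusted p was below 0.05 and the change beyond 1. The filled squares are Il1b, Il1rl1, Il18r1 and Il18rap, and the black circles are all open.

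Set against each other, the 3 tested ligands had log2 fold changes from 0.60 to 2.50 (median 2.21) and the 6 receptors from -0.94 to 2.83 (median 0.31), while the median over all 21991 genes was 0.01. The 6 receptors were split, with Il1rl1, Il18r1 and Il18rap positive and Il1r1, Il1r2 and Il1rap negative. The order of these medians turned round with limma (0.50 for the ligands against 0.77 for the receptors), with the replicate number as a block (0.52 against 0.94) and with the reference density subtracted (1.73 over 2 ligands against 2.35 over 3 receptors). With DESeq2 the ligand median was 0.62, but over other genes. It covered Il1a (-1.79), Il1b (2.58) and Il18 (0.62), and not Il1rn. The ligand median was 0.73 without HADA replicate 2. The receptor median was 1.24 without control replicate 1, and it was -0.02 without HADA replicate 3 and -0.05 with libraries drawn down to the smallest total. Averaged over the tested ligands, log2 CPM was 3.08, 5.24, 2.87 and -0.24 in HADA replicates 1 to 4 and 3.53, 1.24, 0.89 and 1.12 in control replicates 1 to 4. Averaged over the receptors it was 3.84, 3.63, 4.28 and 4.36 in HADA replicates 1 to 4 and 3.02, 3.38, 3.09 and 2.64 in control replicates 1 to 4. The value of control replicate 1 includes Il1r2 at 0 counts, and over the other 5 receptors that library had 4.30, above the 4.11 of HADA replicate 2 and below the 4.47 to 4.99 of the other HADA libraries. HADA replicate 4, the lowest library for the ligands, was the highest for the receptors. HADA replicate 2 was the reverse, highest for the ligands and lowest of its group for the receptors.

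The proportion of antagonist to agonist counts also differed between libraries. Counts of Il1rn per count of Il1b were 0.0321, 0.541, 0.0206 and 0.333 in HADA replicates 1 to 4 and 0.0889 in control replicate 1, against 5.13, 3.94 and 3.35 in control replicates 2 to 4. In those last 3 libraries the ratios of both genes to the reference density were between 0.401 and 1.12. The counts were not scaled for free span, which is 14.6 kb for Il1rn and 5.33 kb for Il1b, so the longer gene gathers more background. For the decoy and signalling receptors, counts of Il1r2 per count of Il1r1 were between 0.181 and 0.378 in HADA and between 0.36 and 0.559 in control replicates 2 to 4. Per kb of free span, the order of mean levels in HADA Tregs was Il1b (7.66 ± 7.82 CPM per kb, SD, n = 4), Il18rap (2.94 ± 2.65), Il1rl1 (1.26 ± 0.377), Il18r1 (1.19 ± 0.916), Il1rn (0.952 ± 1.81), Il18 (0.519 ± 0.379), Il1rap (0.140 ± 0.0314), Il1r1 (0.0848 ± 0.0296), Il1a (0.0658 ± 0.107) and Il1r2 (0.0516 ± 0.00915). Neighbours in this order differed by less than the larger of their SDs, except Il18 and Il1rap, whose difference of means equalled that SD within rounding, and Il1rap and Il1r1. The order in control Tregs was led by Il1b (1.42 ± 2.55), Il18r1 (0.647 ± 0.954), Il18rap (0.421 ± 0.472) and Il1rl1 (0.375 ± 0.388), where the SDs exceed the means and control replicate 1 alone was high.

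Within the receptor cluster on chromosome 1, fold changes were not shared by all neighbours. From start to end of the cluster the log2 fold changes were -0.94 for Il1r2, -0.27 for Il1r1, 1.66 for Il1rl2, 1.78 for Il1rl1, 0.90 for Il18r1 and 2.83 for Il18rap. Il1rl2, which encodes the receptor chain for interleukin 36, was above the reference density in HADA replicate 4, with 992 counts and a ratio of 11.7, and had ratios from 0.531 to 0.608 in the other HADA libraries. The next genes beyond Il18rap, the sodium-proton exchanger genes Slc9a4 and Slc9a2, had log2 fold changes of -1.51 and -1.48 and ratios to the reference density of at most 0.815 in all libraries. Upstream of Il1r2, Map4k4 had 1.03. None of the 14 protein-coding genes in this stretch was past the thresholds with all 8 libraries in edgeR. Without control replicate 1, Slc9a4 and Slc9a2 had log2 fold changes of -1.64 and -1.69 (edgeR adjusted p = 0.0392 and 0.0252), and Tmem182 beyond them had -1.83 (edgeR adjusted p = 0.0172).

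**Figure D4:**
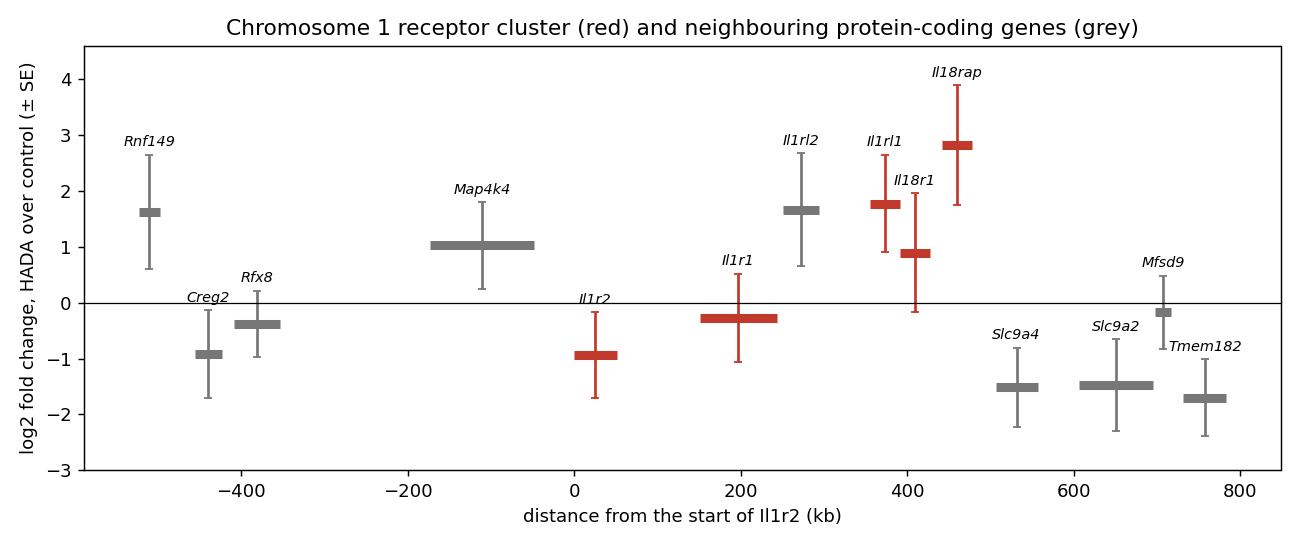
Log2 fold change of HADA over control (vertical axis, bars for standard errors) against distance in kb from the start of Il1r2 for the receptor genes (red) and other protein-coding genes (grey), with horizontal bars as long as each gene span. Il1rl1, Il18r1 and Il18rap are above 0, at 1.78, 0.90 and 2.83, and Slc9a4, Slc9a2 and Tmem182 beyond them are below 0.

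Other genes of the pathway were taken from lists by role. Of 7 further ligands and inhibitors, 6 were tested and 0 were past the thresholds of edgeR in either direction, with 1 positive and 5 negative log2 fold changes. Il18bp, which encodes the soluble trap of interleukin 18, had 4, 65, 2 and 491 counts in HADA replicates 1 to 4 and 0, 18, 10 and 0 in control replicates 1 to 4, with a log2 fold change of 4.80 (SE 1.71, edgeR adjusted p = 0.125). It was highest in HADA replicate 4, where Il18 was lowest. Il36b, an interleukin 36 ligand, had 15, 13, 9 and 2 counts in HADA replicates 1 to 4 and 0, 99, 70 and 48 counts in control replicates 1 to 4, with a log2 fold change of -2.34 (SE 0.71, edgeR adjusted p = 0.0967). With DESeq2 it was past the thresholds as lower, as 11.5% of all genes were, and Il18bp as higher, as 6.98% were. Il33 itself, named here for its role and with its values known, had 58, 32, 30 and 29 counts in HADA replicates 1 to 4 and 0, 268, 217 and 97 in control replicates 1 to 4. Its log2 fold change was -1.64 (SE 0.84, edgeR adjusted p = 0.22). Without control replicate 1, which had 0 counts of both, Il33 (-1.86, edgeR adjusted p = 0.013) and Il36b (-2.46, edgeR adjusted p = 0.0123) were past the thresholds as lower, as was Il36a, named for this count after its values were seen. These were 3 of the 6 tested, against 19.7% of all genes lower in that fit. The ratios of Il33 to the reference density were 0.698 to 0.782 in control replicates 2 to 4 and 0.203 to 0.406 in the HADA libraries. The reference density lies further above the median receptor gene in the HADA libraries, so these ratios do not compare the groups on equal terms.

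Of 4 further receptor genes, 0 were past the thresholds, with 2 positive and 2 negative. Il1rapl2 and Il1rapl1, synaptic members of the family, had log2 fold changes of -1.48 and -1.25 (edgeR adjusted p = 0.237 and 0.272). Sigirr, an inhibitory receptor of the family named after its values were seen, was past the thresholds as higher without control replicate 1, and Il1rapl2 as lower, where 15.5% and 19.7% of all genes were.

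Of 17 genes that relay the signal from the receptors to NF-kB, 16 were tested, 13 had positive and 3 negative log2 fold changes (50.2% of all genes were positive), and 1 was past the thresholds as higher against 1.65% of all genes. Myd88 was listed at 0, with 100% of its span covered by other genes. Tab1, which encodes a binding partner of the kinase TAK1, had 36.9, 52.7, 42.7 and 17.98 CPM in HADA replicates 1 to 4 and 1.24, 2.32, 1.92 and 1.10 CPM in control replicates 1 to 4. Every HADA value exceeded every control value, that of control replicate 1 included, and Tab1 rose by a log2 fold change of 4.48 (SE 0.86, edgeR adjusted p = 0.0244). Groups were apart as higher for 3 of the 16, Tab1 among them, against 9.13% of all genes. DESeq2 called 3 genes of the list higher, against 6.98% of all genes. When control replicate 1 was left out, 7 of the list were past the thresholds, all higher, against 15.5% of all genes. Beside Tab1 these were Irak3, Traf6, Tab2, Ikbkg, Rela and Nfkbia, with log2 fold changes from 2.83 for Irak3 to 6.37 for Rela, and they were named after their values were seen. They include both an activating subunit of NF-kB, Rela, and its inhibitor, Nfkbia. With all 8 libraries only Tab1 was past the thresholds, and its 4.48 was the highest log2 fold change of the 16 tested genes.

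Of 11 genes of the inflammasome and of the processing of interleukin 1 beta and interleukin 18, all were tested and 0 were past the thresholds, with 6 positive and 5 negative log2 fold changes. P2rx7, an ATP-gated channel upstream of the inflammasome, had 31.2 to 67.8 CPM in the HADA libraries and 4.06 to 6.84 CPM in the control libraries, and the groups did not overlap (9.13% of all genes apart as higher). Its log2 fold change was 3.05 (SE 0.78, edgeR adjusted p = 0.063), and with DESeq2 its adjusted p was 1.22e-06. DESeq2 called 2 genes of the list higher, P2rx7 and Aim2, and 2 lower, Nlrc4 and Nlrp1b, where 6.98% and 11.5% of all genes were. Nlrc4, an inflammasome sensor, had 1.54 to 24.1 CPM in HADA and 29.9 to 160.7 in control, with a log2 fold change of -3.07 (SE 1.07, edgeR adjusted p = 0.119). Nlrc4 and Nlrp1b had groups apart as lower, as 5.7% of all genes did. Aim2 and Nlrp1b were named after their values were seen. Without control replicate 1, P2rx7 (3.31, edgeR adjusted p = 0.00996) and Gsdmd (8.62, edgeR adjusted p = 0.015), the pore former of pyroptosis and named after its values were seen, were past the thresholds as higher, and 0 genes as lower, against 15.5% and 19.7% of all genes. With all 8 libraries the 3.05 of P2rx7 was the highest log2 fold change of the 11 genes, so that of Gsdmd was lower than this.

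Of 9 genes linked to ST2-positive Tregs, 7 were tested and 0 were past the thresholds in edgeR, with 5 positive and 2 negative log2 fold changes. DESeq2 called 1, Gata3, as lower, where 11.5% of all genes were. Areg, which encodes the repair factor amphiregulin, had 20.8, 9.55, 8.39 and 0.541 CPM in HADA replicates 1 to 4 and 0, 2.47, 1.57 and 1.80 CPM in control replicates 1 to 4, with a log2 fold change of 2.63 (edgeR adjusted p = 0.147). Gata3, a transcription factor that acts upstream of Il1rl1 in several cell types, had 62.3, 59.4, 128.2 and 205.7 CPM in HADA replicates 1 to 4. Control replicates 1 to 4 had 159.7, 40.1, 680.5 and 1795 CPM. Its log2 fold change was -2.55 (edgeR adjusted p = 0.158), opposite in sign to that of Il1rl1. When control replicate 1 was left out, 1 gene of this list was past the thresholds as higher, the transcription factor gene Irf4 (3.95, edgeR adjusted p = 0.0162), named after its values were seen, against 15.5% of all genes. With all 8 libraries the 2.63 of Areg was the highest log2 fold change of the 7 tested genes.

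Markers of other blood cells were present in the sorted libraries. Of the lists below, 1 marker each of neutrophils, basophils and mast cells, and CD8 T cells was past the edgeR thresholds, all higher in HADA. These were Ltf (6.66, edgeR adjusted p = 0.00693), Fcer1a (4.91, edgeR adjusted p = 0.0319) and Cd8b1 (4.97, edgeR adjusted p = 0.0301), against 1.65% of all genes. DESeq2 called 5 basophil and mast cell, 3 neutrophil, 2 CD8 T cell, 2 NK and 2 platelet markers higher, against 6.98% of all genes. It called 4 erythroid markers lower, against 11.5%. Groups were apart as higher for 4 basophil and mast cell, 2 neutrophil, 1 monocyte, 1 CD8 T cell and 1 platelet marker (9.13% of all genes). They were apart as lower for 2 erythroid markers (5.7%). The summed level of 10 monocyte and macrophage markers was 1520 to 4189 CPM in HADA and 152.5 to 2279 CPM in control, and that of 11 neutrophil markers was 1264 to 1884 against 13.7 to 299.2 CPM, most of the HADA sums coming from Ltf. None of these 21 was at 0 in all libraries, nor was any of the NK, CD8 T, basophil and mast cell markers. The monocyte and macrophage sums were 1791, 3478, 4189 and 1520 CPM in HADA replicates 1 to 4 and 2279, 152.5, 819.7 and 1358 CPM in control replicates 1 to 4. HADA replicate 2, highest for Il1b and Il1rn, and control replicate 1, the control library high for Il1b, were among the 3 highest sums. HADA replicates 1 and 4 and control replicate 4 had 1358 to 1791 CPM of these markers, with Il1b at 28.3, 1.08 and 0.985 CPM. The 8 NK markers summed to 65.9, 127.2, 112.8 and 790.2 CPM in HADA replicates 1 to 4 and 100.05, 10.02, 8.45 and 201.5 in control replicates 1 to 4, and both CD8 T cell markers together to 14.5 to 175.6 against 0.621 to 2.76 CPM. HADA replicate 4, highest for Il18rap, was highest for both lists, but control replicate 4, with 6.03 CPM of Il18rap, had more NK marker CPM than HADA replicates 1 to 3. The 8 basophil and mast cell markers summed to 1095, 402.2, 815.6 and 1548 CPM in HADA replicates 1 to 4 and 152.2, 42.7, 42.5 and 854.7 CPM in control replicates 1 to 4. Il1rl1 was at 4.69 CPM in control replicate 4, a ratio of 0.648 to the reference density, while that library had 854.7 CPM of the basophil and mast cell markers. These 8 markers did not change together, with 7 positive log2 fold changes and 1 negative (-3.85), so the sum need not stand for each of them. B cell markers summed to 1937 to 6253 CPM in HADA and 180.3 to 4933 in control, platelet markers to 268.0 to 1662 and 42.99 to 469.8, and erythroid markers to 144.9 to 2807 and 1027 to 28318, with Ms4a1 and Alas2 at 0 in every library on spans that other genes cover. The part of such cells in the levels of Il1b, Il1rn, Il18, Il1rl1 and Il18rap was not tested.

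The protein-coding genes whose log2 CPM over the 8 libraries resembled each tested gene most, by Pearson correlation, are given as a description. The points are 8 libraries that differ in depth and in the level of the olfactory and vomeronasal receptor genes. Il1b was most like Ptpn12, Pik3c2a and Thra, and Il18 was most like Phaf1, Siah2 and Bud13. Il1rl1 was most like Bet1, Fam234a and Fdx1, Il18r1 most like Edrf1, Pex16 and Egr3, and Il18rap most like Tmem19, Nipal3 and Aspscr1. The coefficients of these 15 genes ran from 0.980 to 0.989. Il1r1 was most like Sv2c, Cdhr18 and Tub, Il1r2 most like Akain1, Catsperg2 and A2ml1, Il1rap most like Pax6, Cwh43 and Cyct, and Il1rn most like AA986860, Fsd2 and Cyp4f40, with coefficients from 0.947 to 0.999. No gene of the axis was among the 3 most similar of any other.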

How the data were processed

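RNA-seq was measured in 4 HADA and 4 control Treg libraries, grouped by their labels. Per the labels and the study's methods, cDNA came from a low-input kit, FastQC and Trimmomatic preceded alignment to GRCm39 by STAR, and featureCounts gave gene counts. The authors deposited raw counts without normalization, and the length column equals the whole span of 100% of the genes. Strand and multi-mapping settings are not given in the sources used here.

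GENCODE vM39 supplied names for 98.7% of the 56980 identifiers. All genes were tested with edgeR 4.0.16 (TMM, filterByExpr, quasi-likelihood, without covariates, prior count of 2 in log2 CPM) in R 4.3.3, with Benjamini-Hochberg adjustment over 21991 genes. SE is the log2 fold change over the root of the F statistic. Alternatives were DESeq2 1.42.0 (named in the study's methods), its size factors in edgeR, limma 3.58.1 on log2(CPM + 1), dropping the filter, a minimum of 10 counts in each library, random thinning to 1477431 counts (seed 1), the replicate number as a block, subtraction of the receptor-gene density, and leaving out each library. The plain edgeR, DESeq2 and limma fits were tested on simulated data that were less variable than the libraries (common dispersion 0.805 in edgeR). The other settings were not tested in this way. The receptor-gene density was subtracted over whole spans, shared stretches included. Python 3.11.15, pandas 2.3.3 and numpy 2.4.6 made the tables.

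The genes of the axis and all lists were chosen with earlier results of these data known. Named from the pathway lists are genes past the edgeR thresholds or, where there were none, the 2 with the smallest p, and Foxp3, Il2ra and Cd4 as the check of the sorted cells. Names outside this rule were chosen after their values were seen. For each tested gene, the 3 protein-coding genes with the highest correlation are named. P-values measure only the spread between these libraries, which may be technical.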

Additional observations from a re-analysis of the deposited data

Results flagged for a closer look

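For each gene and group of 4 libraries, log2 CPM was checked with Dixon's criterion for a library far from the other 3 relative to the range of its group. Of 20 groups, 5 had such a library, where chance gives about 1. Control replicate 1 stood apart in 4 of the 5, and these genes share that library. Its log2 CPM of Il1b was 4.81, while the remaining controls were between -0.46 and 0.12. For Il18r1 it had 6.20 against 2.48 to 2.72, and for Il18rap 5.36 against 2.61 to 2.96. For Il1r2 it had -3.34, on 0 counts, against 1.77 to 2.78 (3.30 to 6.76 CPM) in libraries that all lay above its floor of 1.86 CPM. HADA replicate 2 had a log2 CPM of 5.75 for Il1rn, against -1.12 to 0.01 in the other HADA libraries.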

How the results depend on the processing

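With all 8 libraries, 363 genes were higher and 105 lower in HADA. These counts were 2099 and 3470 with DESeq2 and 158 and 11 with the replicate number as a block. The higher genes numbered 814 with limma, 93 with a minimum of 10 counts, 107 with thinned libraries and 112 with the receptor-gene density subtracted, and the lower genes 54 without a filter. With each library left out, 28 to 3716 genes were higher and 1 to 4732 lower, most without control replicate 1 and fewest without control replicate 3. Of the 9 genes of the axis, 1 was past the thresholds with DESeq2 and 0 to 4 with a library left out, above 0 only without control replicate 1. Groups were apart for 1 gene, Il1rap, with DESeq2, with its size factors in edgeR and with thinned libraries, and for 0 to 5 genes with a library left out. The ligands' median log2 fold change of 2.21 was 0.62 with DESeq2, which covered Il1a, Il1b and Il18 in place of Il1b, Il1rn and Il18. It was 0.50 with limma, 1.34 with a minimum of 10 counts, 1.04 with thinned libraries, 0.52 with the replicate block and 1.73 with the density subtracted (2 of the 3 genes left in each of the minimum, thinned and subtracted settings), and 0.73 to 2.74 with a library left out. That of the receptors was 0.77 with limma, 0.87 with a minimum of 10 counts, -0.054 with thinned libraries, 0.94 with the replicate block, 2.35 with the density subtracted (3 of the 6 genes left), and -0.022 to 1.24 with a library left out.

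Signs changed for Il1rn (-0.0031 with limma, -1.06 with the replicate block and -2.06 without HADA replicate 2), for Il1r1 (0.076 with limma, 0.12 without a filter, 0.083 with the replicate block and 0.14 without control replicate 2), for Il18 (-0.088 with thinned libraries and -0.090 without HADA replicate 1) and for Il18r1 (-0.054 with thinned libraries). Same-numbered libraries had correlations of deviations of -0.207, 0.252, -0.0805 and -0.0032, so the numbers were not taken as pairs, and the block changed no call among the genes of the axis. With a library left out, Il1rn reached 2.74 without HADA replicate 4, Il18 1.91 without control replicate 1 and Il1r1 -0.46 without control replicate 1. The cause of these changes was not tested. At 1477431 counts, values below 1.86 CPM in control replicate 1 rest on fewer than 3 counts.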
